A study of Macaca mulatta with 8 samples.

Results

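Promoters in open-chromatin peak sets of rhesus macaque cortex cells at every sampled stage included those of 430 of 554 genes listed for basic functions. This was 77.6%, against 42.6% of all protein-coding genes and 48.5% of those with a name. Most of the promoters were CpG-rich. The promoters described here are merged regions that hold a peak of each of the 4 stages and overlap the 1000 bp on either side of an annotated start of transcription, of protein-coding or lncRNA genes. They numbered 8597 of the 72358 regions that were called at 1 stage or more. The members were chosen by the measured peak calls themselves, so their presence at 4 stages is the rule and not a finding, and no test is attached to it.

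The assay was ATAC-seq: Tn5 transposase inserts sequencing adapters where DNA is not wrapped in nucleosomes. The 4 groups were primary cortex cells at E50, E60, E80 and E85, counted in days after conception, with 1 culture and 2 technical libraries per stage, 8 libraries in all. All cultures came from cortical tissue frozen, thawed, dissociated and grown on coated plates in a progenitor-favouring medium with FGF2, EGF and BDNF. The cells are thus cultured cells and not fresh cortex, and the cell types among them were not measured here. No genetic change or treatment is given in the labels. The authors deposited 1 table of merged regions with the names of the peaks merged into each, and the peak names were the measurement used. With 1 culture per stage nothing here has a replicate check. The percentages carry exact 95% Clopper-Pearson intervals that cover counting error alone, and neighbouring regions and genes are not independent.

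A promoter is the stretch around a transcription start where general factors and RNA polymerase II assemble. In mammals many promoters lie in CpG islands, GC-rich stretches that keep their CG dinucleotides because they are usually unmethylated, and such promoters serve both housekeeping genes and many developmental regulators. Short DNA words near the start are bound by activators, among them the CCAAT box (NFY), the GC box (SP and KLF factors), and the sites of ETS factors, NRF1, YY1, ZNF143, CREB and RFX factors. Other genes instead have CpG-poor promoters, which are more often used in particular cell types.

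The sequences below show the words that were more frequent in the promoters called at all 4 stages than in those called at fewer, each in the promoter of a listed gene. Each runs 5′ to 3′ on the gene's own strand from 120 bases before to 20 bases after an annotated start, and was read from the RefSeq Mmul_10 genome, the assembly that rheMac10 names. Capitals mark matches on either strand to the motifs named beside them.

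MRPL20, a mitochondrial ribosomal protein, is at chr1:223008732-223008871, plus strand, with a pair of ETS sites and a YY1 site just downstream of the start.
MRPL20: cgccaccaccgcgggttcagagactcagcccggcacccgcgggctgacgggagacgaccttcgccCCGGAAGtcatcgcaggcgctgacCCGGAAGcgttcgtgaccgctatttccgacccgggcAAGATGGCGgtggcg

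RPL10A, a protein of the large ribosomal subunit, is at chr4:134021789-134021928, minus strand, with an NRF1 site. RPL23A is at chr16:24350951-24351090, plus strand, with a YY1 site also just downstream of the start. MRPL54 is at chr19:3654331-3654470, plus strand, with a pair of ZNF143 sites.
RPL10A: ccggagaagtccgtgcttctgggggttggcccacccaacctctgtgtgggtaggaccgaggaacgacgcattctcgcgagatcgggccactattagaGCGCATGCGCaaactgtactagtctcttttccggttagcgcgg
RPL23A: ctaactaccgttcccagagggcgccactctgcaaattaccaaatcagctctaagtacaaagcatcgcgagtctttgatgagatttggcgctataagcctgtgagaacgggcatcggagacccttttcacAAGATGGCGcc
MRPL54: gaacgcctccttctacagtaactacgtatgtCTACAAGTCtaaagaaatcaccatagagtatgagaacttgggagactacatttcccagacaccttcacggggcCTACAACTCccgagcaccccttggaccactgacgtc

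RPS9, of the small ribosomal subunit, is at chr19:53959491-53959630, plus strand, with a reversed CCAAT box and a cAMP response element (CRE). SNRPF, a core protein of the spliceosome's small nuclear ribonucleoproteins, is at chr11:95667542-95667681, plus strand, with an RFX site and a pair of CCAAT boxes.
RPS9: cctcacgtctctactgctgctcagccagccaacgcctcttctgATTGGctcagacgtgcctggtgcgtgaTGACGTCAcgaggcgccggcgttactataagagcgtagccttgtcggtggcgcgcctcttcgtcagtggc
SNRPF: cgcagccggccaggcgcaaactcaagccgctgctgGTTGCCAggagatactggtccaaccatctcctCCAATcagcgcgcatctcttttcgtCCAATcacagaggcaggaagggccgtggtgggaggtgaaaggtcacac

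A pair of glial promoters, from the radial glia and astrocyte lists, was picked for being poor in CG dinucleotides. Each had the lowest ratio among the eligible promoters of its list, so the contrast below was set by the choice. Over the 13 radial glia genes with an all-stage promoter the median ratio was 0.64, and 7 were CpG-rich by the definition given below. HES5, a Notch target of radial glia, is at chr1:221871361-221871500, plus strand, and has a GC box. GFAP, an intermediate filament of astrocytes and of some radial glia, is at chr16:56180965-56181104, minus strand, and holds none of the motifs marked. The CG dinucleotides reached 0.22 of the number expected from base composition in the 300 bases at the HES5 start and 0.23 at the GFAP start, against 0.63 at the SNRPF start, the lowest of the 6 promoters printed above, and 1.09 at the MRPL20 start, the highest. GC content was 48.3% at RPL23A and 42.3% at MRPL54, so not all of those 6 are GC-rich.
HES5: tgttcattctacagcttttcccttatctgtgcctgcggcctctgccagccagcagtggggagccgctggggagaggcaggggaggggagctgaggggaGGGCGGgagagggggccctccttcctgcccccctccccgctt
GFAP: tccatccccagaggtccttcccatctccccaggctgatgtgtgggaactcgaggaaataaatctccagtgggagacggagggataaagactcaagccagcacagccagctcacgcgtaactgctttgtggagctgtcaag

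The all-stage promoters made up 50.5% of the 17025 regions called at all 4 stages (interval 49.7 to 51.3) and 51.3% of the 16752 promoter regions called at any stage. They were 95.5% of the 9004 promoter regions in the E50 set, 54.5% of 15781 in the E60 set, 57.0% of 15088 in the E80 set and 75.8% of 11344 in the E85 set. Nearly every E50 promoter was thus also in the 3 later sets, and the E50 set, the smallest with 19833 peaks, set the limit of the membership. The other sets held 61956 peaks at E60, 60278 at E80 and 30701 at E85, so absence from a set may mean a signal under the threshold. In these promoters lay 47.0% of the E50 peaks, 15.2% of the E60, 15.7% of the E80 and 31.4% of the E85 peaks. Of the 2482 promoters called at exactly 3 stages, 2315 lacked E50 alone. In a bulk culture, a promoter open in fewer cells and a promoter less open in each cell cannot be told apart.

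The start itself lay inside the region in 7952 of the 8597 members (92.5%). Just inside the distance limit, 47 members had their nearest start more than 900 and up to 1000 bp away, and just outside it 53 all-stage regions had theirs more than 1000 and up to 1100 bp away. The 2564 members with a single annotated start, inside the region, reached a median of 719 bp into the gene (quartiles 505 to 1008) and 474 bp upstream of the start (quartiles 308 to 721). The downstream arm was longer in 1782 of them (69.5%). The open stretch was thus placed over the start and the beginning of the gene more than over the DNA before it.

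Most of these promoters were a single peak at each stage. Of the 8597, 6873 (79.9%) held exactly 1 peak of every stage. A further split into 2 or more peaks was seen in 7.84%, 8.14%, 8.83% and 10.9% of them from E50 to E85. Among the 8428 distal regions called at all 4 stages, 2.99%, 4.52%, 4.57% and 4.26% were split in the same order of stages.

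Their median width was 1272 bp (quartiles 970 to 1686), against 974 bp for promoters called at 3 stages, 733 bp at 2 stages, 400 bp at 1 stage and 750 bp for distal regions called at all 4 stages. Over 2000 bp were 13.9% of them, against 3.01% of the all-stage distal regions. Width comes from the same peaks that chose the members, and the bounds of a region may also rest on the lifted peaks merged into it, so it is given as a description. Among the 314 members with no lifted peak the median was 817 bp, against 550, 380 and 288 bp for promoters called at 3, 2 and 1 stages with no lifted peak and 547 bp for such distal regions. The order of the promoter classes was the same on both counts.

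The table also holds lifted peaks of 4 further sets, whose codes are not explained in the labels. At least 1 of them overlapped 96.3% of the all-stage promoters, and peaks of all 4 lifted sets were present in 84.9% (interval 84.2 to 85.7). That share was 53.4% at promoters called at 3 stages, 27.8% at 2 stages, 9.73% at 1 stage and 51.8% at distal regions called at all 4 stages. The promoters that the macaque stages had in common were thus also the promoters most often present in these other sets. The part of region width in this comparison was not tested.

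**Figure D1:**
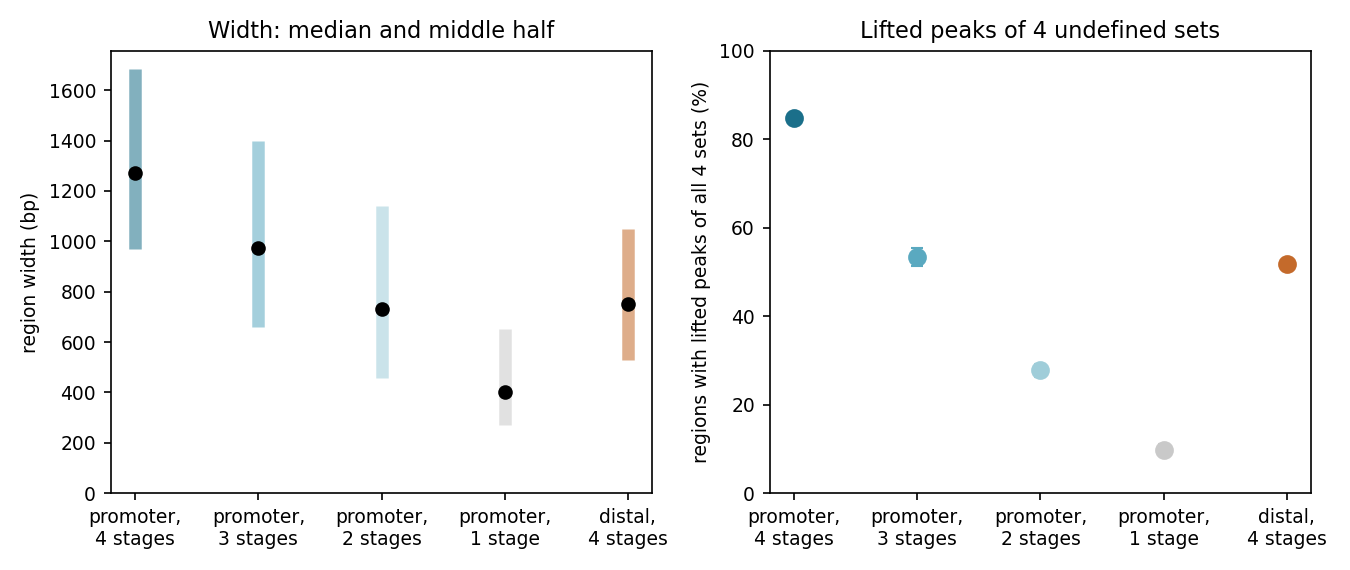
Region width in bp (left; black points are medians and bars the quartiles) and share of regions in % that hold lifted peaks of all 4 undefined sets (right; exact 95% intervals, smaller than most points), for promoters called at 4, 3, 2 and 1 stages and distal regions called at 4 stages. The all-stage promoters had a median of 1272 bp and a share of 84.9%, above the other classes on both scales.

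Some members were far wider and held many peaks. The transcription factor gene POU3F3, an upper-layer neuron regulator also used in progenitors, had the most peaks of all, 4 in E50, 5 in E60, 7 in E80 and 5 in E85 cells, in a region of 9518 bp (chr13:8613440-8622957). EGR1, an immediate early gene induced by growth factors, had 2, 1, 1 and 3 peaks in the same order of stages over 8962 bp. FOS, another immediate early gene, had 2, 3, 2 and 5 peaks over 5140 bp. ZFP36L1, which encodes an RNA-binding protein that promotes mRNA decay, had 2, 5, 6 and 4 peaks over 7655 bp. SOX6, a transcription factor gene of neural lineages, had 3, 5, 3 and 3 peaks over 5254 bp, and TRIB2, a pseudokinase gene sharing its region with a lncRNA gene, had 3, 4, 2 and 2 peaks over 8293 bp. TRIM8 (5403 bp), TNRC18 (4844 bp) and CSMD2 (4810 bp) had 12, 14 and 12 peaks in all. UBTF, an RNA polymerase I factor gene named after its values were seen, also had 12, over 4764 bp. No stage had the most peaks in all of these regions.

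The widest regions of all carry other marks. The region of the uncharacterised LOC107000608 on chromosome 1 spanned 151267 bp with 8 stage peaks and that of LOC106992364 on chromosome 7 spanned 87888 bp with 16, both at genes without a name. NUDT4, which encodes a diphosphoinositol polyphosphate phosphohydrolase, had 1 peak at each stage and 20 lifted peaks over 22248 bp. The region of LOC713295 and ZNF850 had 7 stage peaks and 25 lifted peaks over 10638 bp. FAM187A (8092 bp) and QKI (7979 bp), which encodes an RNA-binding regulator of splicing in glia, also stood among the 10 widest. Their widths follow from how peaks were merged in the table, and no width of these is read here as an open domain. After their values were seen, PAX6 was singled out among the next widest, at 5322 bp with 2, 3, 1 and 3 peaks, together with POU3F2 at 5695 bp with 3, 1, 4 and 2, and SOX9 at 5036 bp with 1, 2, 2 and 2.

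In terms of genes, 8998 of 21122 protein-coding genes had a promoter in a region called at all 4 stages, which is 42.6% (interval 41.9 to 43.3). This share is the background for every gene list below. Taken singly, E50 gave 44.3%, E60 64.7%, E80 63.2% and E85 53.0%. A further 9.58% of genes reached 3 stages at most, 11.0% reached 2 and 3.78% reached 1, and 33.1% had no promoter called at any stage. Genes with only a LOC identifier had an all-stage promoter in 13.1% of cases, against 48.5% of genes with a name. The lists hold named genes, so 48.5% is the closer comparison for them. Of 8227 lncRNA genes, 959 had an all-stage promoter (11.7%), and 650 of these (67.8%) shared the region with a protein-coding gene.

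Genes for the basic machinery of the cell stood above the background throughout. All 16 function lists had a share above 42.6%, the lowest being 56.5% and the median 79.2%. These shares are descriptions with no test. Of their 554 genes, 430 (77.6%) had an all-stage promoter, 87 had a promoter called at fewer stages and 37 had none. The regions of these genes were not wider than the rest, with a median of 1208 bp against 1304 bp over all 8997 genes with an all-stage promoter and a sequence window.

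The cytosolic ribosome was covered in 70 of 85 genes (82.4%, interval 72.6 to 89.8). Its proteins FAU, RPL3, RPL5 and RPL6 each had 1 peak at every stage, in regions of 1006, 1628, 964 and 704 bp. RPL4 was called at 3 stages, with 2 peaks at E60, 2 at E80, 1 at E85 and none at E50, and RPL15 lacked E85 alone. Of the 7 without any call, RPL3L is a muscle paralog and RPL10L a testis paralog in human. For RPS3, a protein of the small subunit, the nearest region of any stage lay 15831 bp from its start. Of the 37 uncalled genes of all function lists, 7 had an all-stage region within 5000 bp of a start, among them PRPF38B at 1110 bp and NDUFS6 at 1219 bp. Annotated starts were taken as given, and their part in such gaps was not tested.

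Further translation genes behaved alike. The mitochondrial ribosome had 55 of 78 (70.5%), with MRPL1, MRPL2, MRPL3 and MRPL4 called at all 4 stages, MRPL12 at fewer and MRPL13 at none. Translation initiation factors and their regulators had 41 of 52 (78.8%), with EIF1, EIF1AD, EIF1AX and EIF1B called at all stages, EIF1AY at fewer and EIF2AK4 at none. The synthetases that charge tRNAs with amino acids had the highest share, 19 of 20 (interval 75.1% to 99.9%), and the exception MARS had no call. The chaperonin that folds actin and tubulin had 6 of 8, without CCT2 and CCT6A, and its interval (34.9% to 96.8%) holds the background.

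Protein turnover, RNA processing and energy supply followed. Proteasome subunits had 31 of 39 (79.5%), with PSMA1 to PSMA4 called at all 4 stages, whereas PSMB4 reached fewer and PSMA8, a testis subunit in mouse, none. Spliceosome proteins had 35 of 44 (79.5%), with LSM1 to LSM4 among them. Complex I of the respiratory chain had 27 of 37 (73.0%), with NDUFA2 to NDUFA5 among them and NDUFA1 and NDUFA10 at fewer stages. RNA polymerase II had 10 of 12 subunits, without POLR2K and POLR2L, and the Mediator complex that links it to activators had 26 of 30 (86.7%), without MED9, MED16, MED24 and MED27. Nucleoporins had the lowest share of the function lists, 13 of 23 (56.5%, interval 34.5 to 76.8), an interval that also holds the background.

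Chromatin and division genes were likewise covered. The BAF remodelling complex had 20 of 26 (76.9%), including the ATPase genes SMARCA2 and SMARCA4. SMARCA2 had 1 peak at E50 and 2 at each later stage over 3647 bp. The subunits SMARCB1 and SMARCD3 were called at fewer stages. Polycomb complexes, which keep developmental genes silent, had 22 of 30 (73.3%), with EZH1, EZH2, EED and RBBP4 at all stages and SUZ12 at fewer. DNA replication licensing had 18 of 20 (90.0%), from MCM2 to MCM5 onward, with CDT1 and GINS3 at fewer stages. Mitotic genes had 16 of 18 (88.9%), with TOP2A, CDK1, CCNB1 and CCNB2 at all stages. The exceptions were MKI67, called at the 3 stages after E50, and PLK1, whose annotated start had a region of 185 bp at E80 alone.

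Histone genes had 21 of 32 (65.6%, interval 46.8 to 81.4). Their regions had a median width of 2466 bp, and the median GC content of the 300 bases at the start was 44.7%. By the definition given below, 15 of the 21 were not CpG-rich. The median ratio of observed to expected CG dinucleotides over the 21 was nonetheless 0.83, against 0.85 over all genes with an all-stage promoter. A CCAAT box was found in 17 of the 21 and a TATA box in 3, and 8 had a divergent protein-coding partner. H1FX and H2AFX, which encode variant histones, had regions of 3636 and 2097 bp. HIST1H2AC, chosen after its values were seen, had 2 peaks at each of the 4 stages over 4018 bp.

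The zinc finger genes named ZNF, most of which encode DNA-binding repressors, had 275 of 403 (68.2%, interval 63.4 to 72.8). ZNF2, ZNF3, ZNF8 and ZNF10 were among them, in regions of 1197 to 1991 bp. The other families stood below the background in their share called at all 4 stages. Solute carriers, which move metabolites across membranes, had 122 of 355 (34.4%) at all 4 stages, and 124, 233, 225 and 171 at the single stages from E50 to E85. They included the glutamate transporter gene SLC1A3 and the glucose transporter gene SLC2A1. Potassium channels had 15 of 92 (16.3%) at all 4 stages, and 15, 68, 61 and 33 at the single stages in that order, with KCNA1, KCNA2 and KCNAB2 at all 4. Over all protein-coding genes the single-stage shares were 44.3%, 64.7%, 63.2% and 53.0%. Potassium channels stood above these shares at E60 and E80 and below them at E50 and E85. Solute carriers stood near them at E60 and E80 and below them at E50 and E85. Without the E50 culture the potassium channel share was 35.9%, against 51.5% of all genes, and that of keratins 4.65%. Olfactory receptors had 0 of 88, keratins 0 of 43 and HOX genes 0 of 38. Counts of 0 allow shares of up to 4.11%, 8.22% and 9.25% by the interval. OR4Q3, the keratin genes KRT8, KRT16 and KRT20, and 5 HOX genes had a promoter called at fewer stages.

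Markers of cell types were checked to see which cells the all-stage promoters describe. Radial glia, the stem cells of the developing cortex, had 13 of 14 (92.9%, interval 66.1 to 99.8). The regulators PAX6, SOX2, HES1 and HES5 had regions of 5322, 3690, 1709 and 1319 bp, and SOX2 had 2 peaks at E50 and E60 and 1 at both later stages. PROM1 was called at E60 and E80 alone. Outer radial glia, which expand the primate cortex, had 8 of 9 (88.9%), with HOPX, TNC, PTPRZ1 and FAM107A, each with 1 peak at every stage, and MOXD1 at fewer.

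Of 7 genes of telencephalic identity, 4 had an all-stage promoter. EMX2, a homeobox gene of the dorsal telencephalon, had 1, 2, 2 and 2 peaks from E50 to E85 over 3259 bp, while LHX2 had 1 peak at every stage. EMX1 and SIX3 were called at fewer stages and OTX2 at none. Of 8 hindbrain and midbrain genes, PAX5 alone had an all-stage promoter, in a region of 629 bp, while EN1 had none and EN2 fewer stages.

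Of 48 genes in 5 lists for intermediate progenitors and neurons, 18 had an all-stage promoter, 24 were called at fewer stages and 6 at none. Of 9 intermediate progenitor genes, HES6 alone had an all-stage promoter, and the list had 1, 8, 7 and 2 calls from E50 to E85. EOMES, the marker of these cells, lacked E50, with 1 peak at each later stage, and NEUROG2 had 2 peaks at E60, 1 at E80 and none at E50 and E85. Deep-layer neuron genes had 3 of 8 (SOX5, LDB2 and NR4A2), and TBR1 and BCL11B were called at E60 and E80 alone. Upper-layer genes had 3 of 8, POU3F2 and POU3F3 among them, with CUX1 and RORB at fewer stages. Pan-neuronal genes had 7 of 12, including MAP2, SYT1, SNAP25 and NEFL, while DCX and STMN2 were called at fewer stages. Genes of interneurons and their ventral source had 4 of 11, namely DLX1, DLX2, SP8 and CALB2, with GAD1 and GAD2 at fewer stages. The lists are short, and each of these 5 intervals holds the background share of 42.6%. That of intermediate progenitors (0.281% to 48.2%) does not hold the 48.5% of named genes, and the others do. Without the E50 culture, intermediate progenitor genes reached 22.2% (11.1% with it) and upper-layer genes 75.0% (37.5% with it), against 51.5% of all genes.

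The glial and vascular lists are short. The intervals of astrocyte (18.7% to 81.3%), oligodendrocyte lineage (2.81% to 60.0%) and mesenchyme and mural genes (2.28% to 51.8%) hold the background of 42.6%. Astrocyte genes had 5 of 10, with GFAP at 1, 2, 2 and 1 peaks from E50 to E85 over 3022 bp, and with ALDH1L1, GJA1, SPARCL1 and S100B. Oligodendrocyte lineage genes had 2 of 9, the early regulator OLIG2 and the receptor gene PDGFRA, while the myelin genes MBP and MOG had no call. Microglial genes had 0 of 12 and endothelial genes 0 of 10. Choroid plexus and hem genes had 0 of 8. These counts of 0 allow shares of up to 26.5%, 30.8% and 36.9% by the interval, in that order. The defining microglial genes AIF1, CX3CR1, P2RY12 and CSF1R were in no set, and of the endothelial genes CLDN5 and FLT1 were called at fewer stages. Mesenchyme and mural genes had 2 of 11, PDGFRB and TAGLN, whereas the collagen genes COL1A2 and COL3A1 had no call. Without the E50 culture the mesenchyme and mural share was 36.4% (18.2% with it) and that of choroid plexus and hem genes 12.5%.

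**Figure D2:**
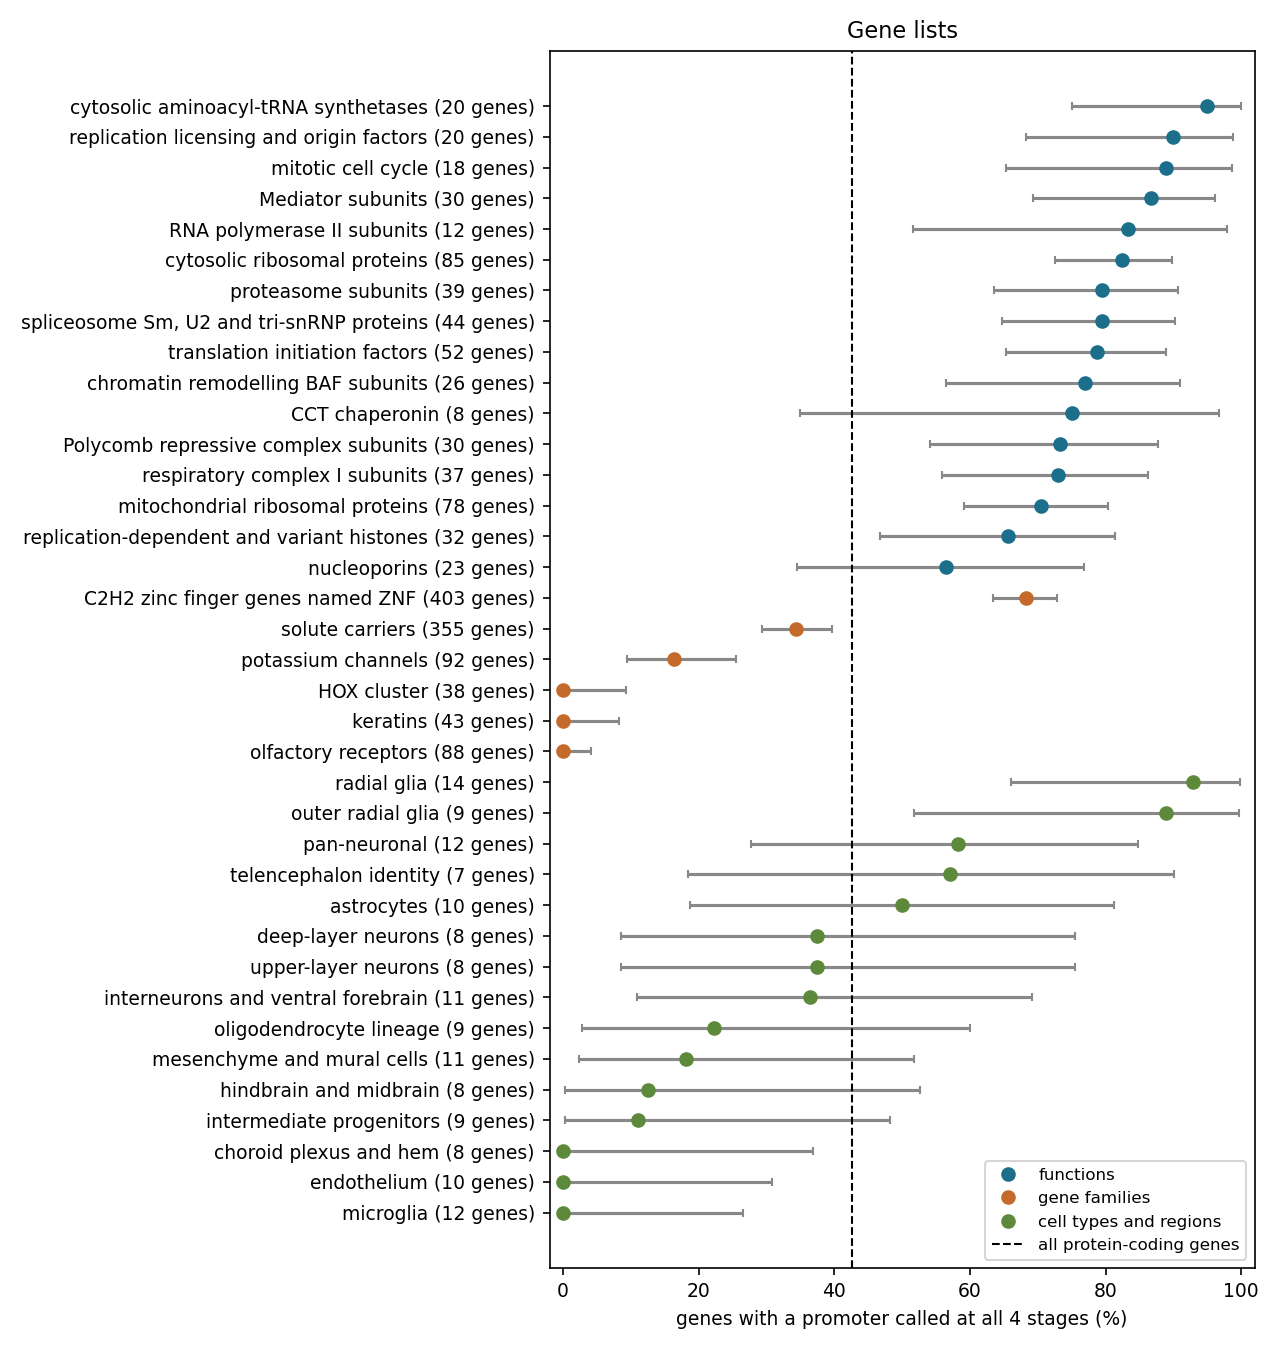
Share of each list's genes in % with a promoter called at all 4 stages, with exact 95% intervals and the number of genes in brackets; the dashed line is the share over all protein-coding genes, 42.6%. All 16 function lists lie to the right of the line, as do zinc finger genes and radial glia, and olfactory receptors, keratins, HOX genes, microglia, endothelium and choroid plexus lie at 0.

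The sequence at the start was examined in the 300 bases from −250 to +50 of 1 start per gene, for 8997 genes with an all-stage promoter. GC content did not set them apart among called promoters. Its median was 65.3% at all 4 stages, 65.7% at 3, 66.0% at 2, 63.0% at 1 and 49.0% in the 6972 genes with no call. The ratio of observed to expected CG dinucleotides was lower the fewer the stages called. It was 0.85 at all 4 stages (quartiles 0.71 to 0.95), 0.81 at 3, 0.77 at 2, 0.67 at 1 and 0.27 with no call. Promoters with over 50% GC and a ratio over 0.6 are called CpG-rich here. They were 82.8% at all 4 stages (interval 82.0 to 83.6), 72.3% at 3 stages, 67.6% at 2, 53.8% at 1 and 13.6% with no call, against 56.2% of all 21100 genes with a window.

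The shape of the gene around the start also differed. A divergent partner, the start of another protein-coding gene on the opposite strand within 1000 bp upstream, was found for 19.0% of genes with an all-stage promoter (interval 18.2 to 19.9). It was found for 8.75% at 3 stages, 5.67% at 2, 6.02% at 1 and 1.84% with no call, and for 10.4% of all genes. Within CpG-rich promoters the share was 20.9% at all 4 stages, against 9.85%, 7.30% and 9.32% at 3, 2 and 1 stages and 6.87% with no call. Both genes of a pair are counted, and a pair puts its genes in 1 region. Counted by region, 1466 of the 8597 members (17.1%, interval 16.3 to 17.9) held a divergent pair of any kind, against 9.79% at 3 stages, 6.28% at 2 and 6.21% at 1. Starts up to 1000 bp outside a region were counted, so a wider region searches a longer stretch. The part of region width in this difference was not tested.

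Some pairs joined genes of the function lists. FAU, which encodes a ribosomal protein fused to a ubiquitin-like one, and MRPL49 of the mitochondrial ribosome shared chr14:9404005-9405010, with starts at 9404667 on the plus and 9404571 on the minus strand. PSMA2 of the proteasome and MRPL32 shared chr3:72231713-72232674, with starts at 72232225 and 72232206. TCP1 of the chaperonin and MRPL18 shared chr4:10812181-10814362, which had 2 peaks at E50 and 1 at each later stage. MCM4 of the replicative helicase and PRKDC, the DNA repair kinase gene, shared a region of 1688 bp with 2, 1, 1 and 2 peaks from E50 to E85. By list, 20 of 55 mitochondrial ribosomal genes and 9 of 27 complex I genes with an all-stage promoter had a protein-coding partner, against 1 of 13 radial glia genes. The chaperonin had 3 of 6, histones 8 of 21, replication licensing 5 of 18 and spliceosome proteins 9 of 35. Some function lists stood below the 19.0% of all genes with an all-stage promoter. These were the synthetases with 3 of 19, the BAF complex with 3 of 20, mitotic genes with 2 of 16 and Polycomb genes with 1 of 22. The remaining function lists ran from 19.2% to 23.1%. In all, 1183 members (13.8%) held starts of exactly 2 protein-coding genes and no lncRNA, 6426 (74.7%) held those of 1 protein-coding gene alone, and 319 (3.71%) held lncRNA starts only.

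**Figure D3:**
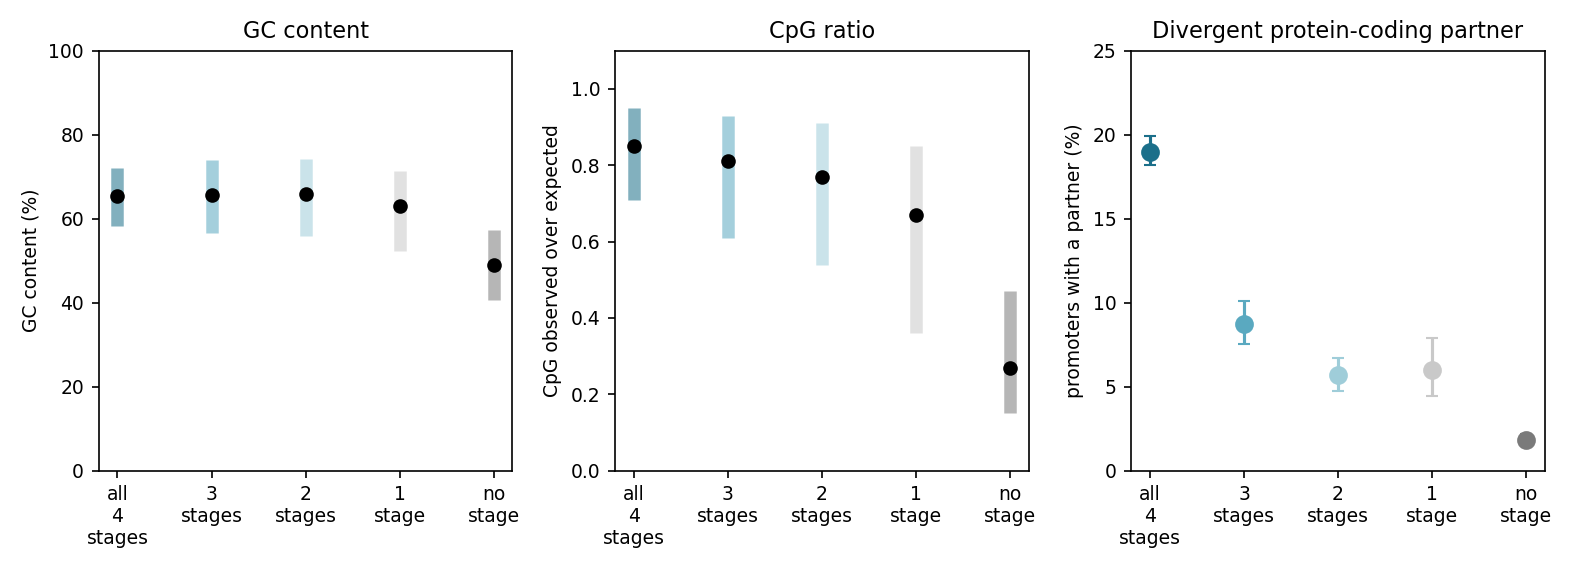
GC content in % and CpG observed-over-expected ratio of the 300 bases from −250 to +50 (black points are medians, bars the quartiles), and share of genes in % with a divergent protein-coding partner (exact 95% intervals), for genes by the largest number of stages at which a promoter was called. GC content is level over the called classes, the CpG ratio declines from 0.85 to 0.67, and the partner share is 19.0% at all 4 stages against 8.75% or less elsewhere.

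Motif shares were counted in the same 300 bases on both strands for the letters given, except the TATA box (TATAAA), which was sought on the gene's strand from −40 to −15. To keep base composition out of the comparison as far as a split can, the shares below are of CpG-rich promoters, 7450 of them called at all 4 stages and 3453 at fewer. The CCAAT box showed the largest difference in percentage points. CCAAT was present in 38.2% of all-stage promoters (interval 37.1 to 39.3), against 21.5% at 3 stages, 24.3% at 2, 22.1% at 1 and 24.0% with no call. The ETS word CCGGAAG was in 20.3% (19.4 to 21.2), against 16.3%, 8.90%, 9.79% and 10.4% in that order. ZNF143's CTACAANTC was in 3.11% (2.73 to 3.53), against 1.50%, 0.768%, 0.932% and 0.423%. Each of these words stood at its highest share in the promoters called at all 4 stages.

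The other leading words were rarer. NRF1's GCGCATGCG was in 4.12%, against 2.66% of the CpG-rich promoters called at fewer stages, and its share with no call, 3.38%, lay between them. YY1's AAGATGGCG was in 3.53% against 2.32%, the CRE TGACGTCA in 3.85% against 2.40%, and the RFX word GTTGCCA in 3.92% against 2.58%. For each, the interval of the all-stage share lies above that of the fewer-stage share. Over all 21100 promoters, whatever their CpG content, CCAAT was in 33.9%, CCGGAAG in 11.1%, GCGCATGCG in 2.18%, AAGATGGCG in 1.83%, CTACAANTC in 1.71%, TGACGTCA in 2.15% and GTTGCCA in 3.70%. The 7 were taken as leading because the all-stage share was at least 1.5 times the fewer-stage share. A match is a string of letters and not a bound site.

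The other words stood below that ratio. The GC box GGGCGG was in 79.1% of CpG-rich all-stage promoters, against 78.6%, 82.1% and 82.1% at 3, 2 and 1 stages, and in 52.6% of all promoters. The E2F word TTTNGCGC was in 3.36% (2.96 to 3.79) against 2.29% at fewer stages (1.82 to 2.84), with intervals that do not overlap. CACGTG, the E-box of MYC and USF, was in 10.4% against 9.21%. The CTCF core AGNGGGCGC was in 7.32% against 9.01%, and TAATTA, a homeobox word, in 1.03% against 1.74%, both lower at all 4 stages, though in a longer window around the start the TAATTA share was higher at all 4 stages by 0.54 percentage points. AP-1 (TGANTCA), TEAD (ACATTCC), SOX (ACAATGG), POU (ATGCAAAT) and the proneural E-box CAGCTG were in 2.48%, 1.56%, 1.45%, 0.886% and 14.6%, against 2.92%, 1.51%, 1.39%, 1.04% and 14.1% at fewer stages, with overlapping intervals. The TATA box was in 0.322% against 0.550%. Over all promoters these shares were 2.01% for E2F, 7.71% for CACGTG, 4.79% for the CTCF core, 4.17% for TAATTA, 5.53% for AP-1, 2.69% for TEAD, 2.44% for SOX, 1.57% for POU, 15.4% for CAGCTG and 1.09% for TATAAA. The GC box and the CTCF core share 5 letters and can overlap.

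**Figure D4:**
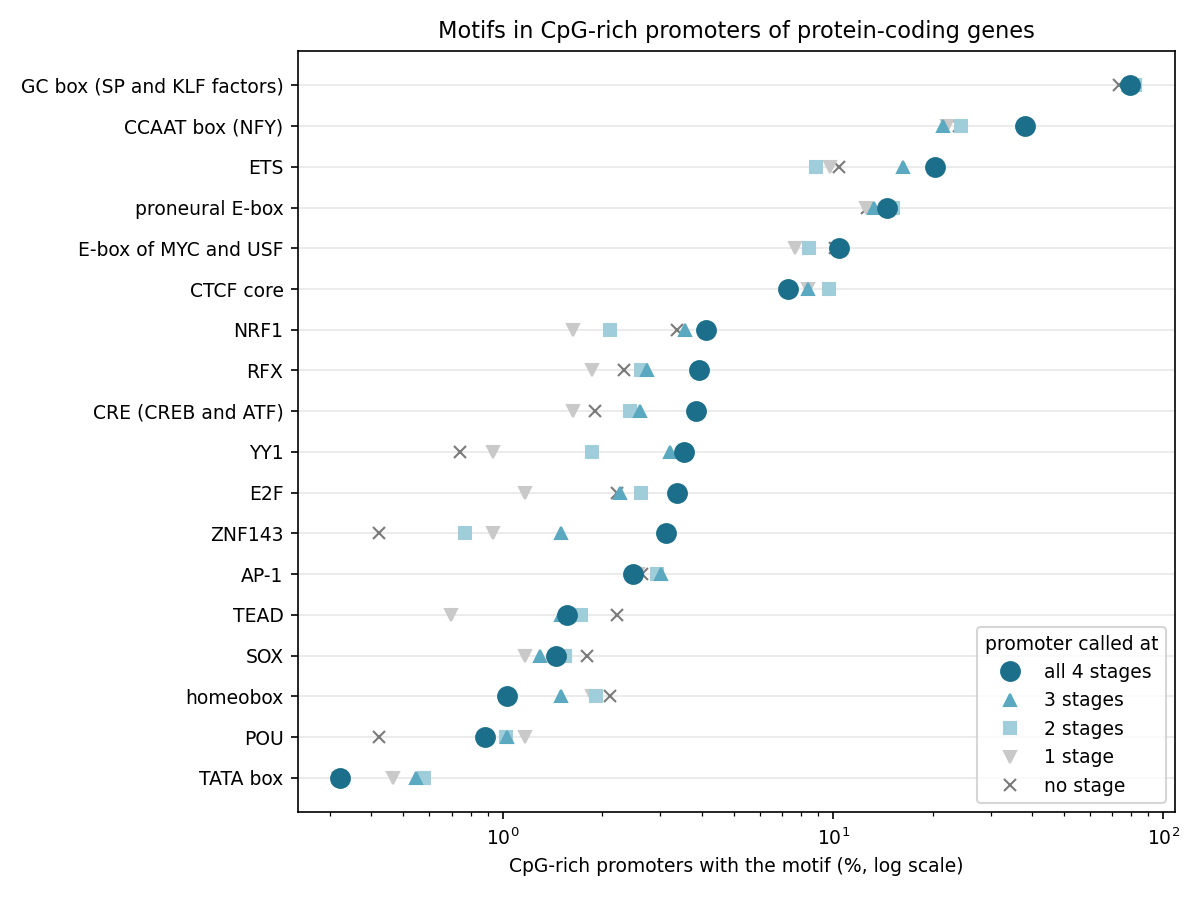
Share in % (log scale) of CpG-rich promoters of protein-coding genes that hold each motif, by the largest number of stages at which a promoter of the gene was called. The all-stage promoters (large dark points) lie to the right of the other classes for CCAAT, ETS, NRF1, YY1, ZNF143, CRE, RFX and E2F, and not for the GC box, CTCF, AP-1, TEAD, SOX, POU, homeobox or TATA words or the E-boxes.

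The 1547 genes with an all-stage promoter that was not CpG-rich (17.2%) were the minority. Their regions had a median of 1154 bp, against 1329 bp for CpG-rich ones, and all 4 lifted sets were present in 79.1% against 88.2%. In these, CCAAT was in 39.8% and CCGGAAG in 7.56%, against 33.4% and 4.59% of the 1678 promoters of the same kind called at fewer stages. The POU word ATGCAAAT, 1 of 18 motifs counted, was in 3.62% (interval 2.75 to 4.68), against 1.73% (1.16 to 2.47). By class, its share was 0.893% at 3 stages, 1.87% at 2 and 2.71% at 1 (1.31 to 4.93). With no call it was 2.34% (1.97 to 2.75). AP-1 was in 8.60% against 9.83%. They included 4 of the 5 astrocyte genes (GFAP, GJA1, SPARCL1 and S100B), 6 of the 13 radial glia genes (FABP7, HES1, HES5, NES, PTN and VIM) and both mural genes. At the start of VIM, an intermediate filament gene of radial glia, GC content was 42.7% and the CpG ratio 0.53. GAP43, a growth cone protein gene, had a ratio of 0.13. Where the annotated start sits off the centre of a region, or outside it, as for HES1, these values describe the start and not the whole region. For HES5 the ratio was 0.22 at the start and 0.60 over the region.

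All-stage promoters were less frequent on the X chromosome. There, 216 of 895 protein-coding genes (24.1%, interval 21.4 to 27.1) had one, in 202 regions, against 38.2% (35.6 to 40.8) on chromosome 14, the lowest autosome, and 50.9% on chromosome 13, the highest. Among genes with a name alone, the X share was 29.3%. The labels do not give the sex of the animals. Among X genes with a promoter called at any stage, 43.4% reached all 4, against 59.5% to 71.0% on the autosomes. The regions of the 216 X genes with an all-stage promoter had a median width of 1180 bp, against 1308 bp for such genes on autosomes. The median CpG ratio at their starts was 0.82 against 0.85. The CRE was in 1 of 216 X promoters (0.463%, interval 0.0117 to 2.55), against 3.52% on autosomes (3.14 to 3.93). It was singled out of 18 motifs counted, and for all others the X and autosome intervals overlapped.

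**Figure D5:**
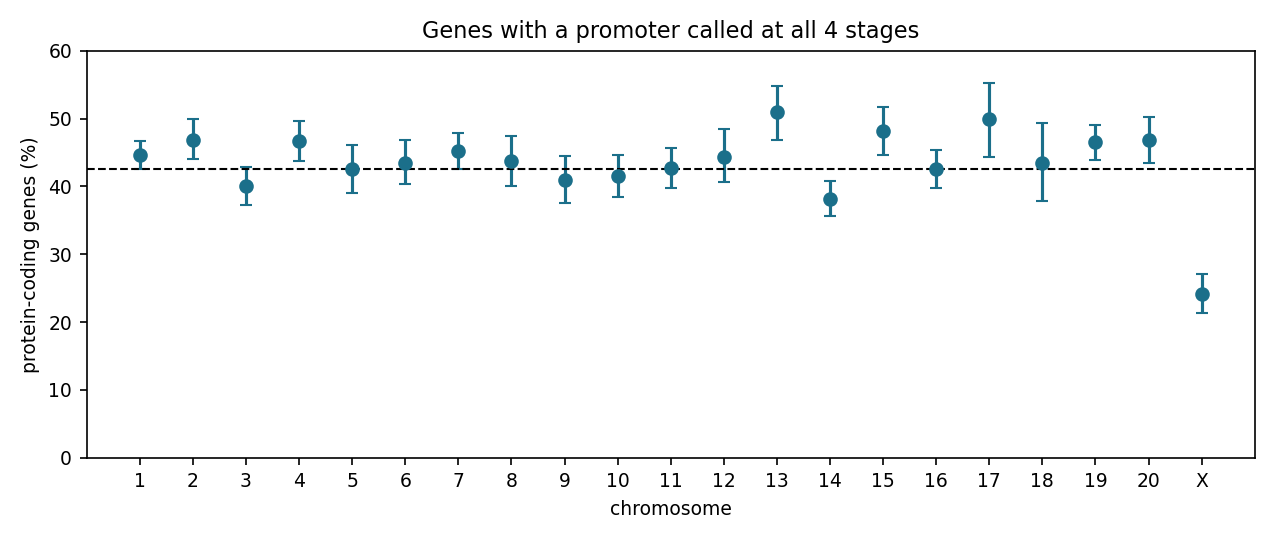
Share of protein-coding genes in % with a promoter called at all 4 stages, by chromosome, with exact 95% intervals; the dashed line is the share over all genes, 42.6%. The X chromosome lies at 24.1%, below the 20 autosomes, which run from 38.2% to 50.9%.

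Many genes with an all-stage promoter have other annotated starts, and a minority of such genes had a call there at fewer stages. Of the 8998 genes, 2533 (28.2%) had a start away from every all-stage region, and 685 (27.0% of those) had another promoter region there called at 1 to 3 stages. These 917 other regions had a median width of 656 bp. E60 and E80 alone were their commonest pattern, with 375 (40.9%), followed by the 3 stages after E50 with 234 (25.5%), E60 alone with 152 and E80 alone with 79. Among all 8155 promoter regions called at 1 to 3 stages, which include these, the first 2 patterns made up 42.5% and 28.4%. Peaks of E50 were in 5.34% of the other regions, of E60 in 84.7%, of E80 in 77.4% and of E85 in 31.8%, against 4.99%, 88.1%, 79.6% and 33.7% of the 8155. The stage patterns of these other promoters were thus near those of all promoters called at fewer stages.

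NHSL2, on the X chromosome, had the most other regions, 6 beside 1 all-stage promoter of 796 bp, none with a peak of E50 or E85. Regions and not starts were ranked here. Several of the NHSL2 regions lie near the same start, at 68975089 or at 69131813. GSE1, a coiled-coil protein gene, had 5 others beside an all-stage promoter of 2278 bp. Of these 5, a pair had a peak of E85 and none of E50. ANK2, which encodes a neuronal ankyrin, had 2 all-stage promoters, the shorter with 1 peak at every stage (1043 bp) and the longer with 2 at every stage (1813 bp), and 4 other regions without E50. DST, a cytoskeletal linker gene, likewise had 2 all-stage promoters and 4 others. ABLIM1, ABR, ARHGAP24, DAB2IP, GRAMD1B and GRIK5 had 4 others each. In GSE1, ABLIM1, ARHGAP24, DAB2IP and GRIK5, too, neighbouring other regions lay within 1000 bp of the same start. None of the other regions of these 10 genes held a peak of E50, which is present in 4.99% of all promoters called at fewer stages.

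The reverse case, a gene with several all-stage promoter regions, was seen in 487 genes with at least 2 and in 33 with at least 3. Regions and not starts were counted, so neighbouring regions near the same start count separately. The 2 regions of ABLIM1, for instance, both lie near its start at 115202146. SOX6 and IQSEC1, an exchange factor gene for ARF GTPases, had 4 each, the most of any. The SOX6 promoters, on chromosome 14, were 1886, 5254, 939 and 1685 bp wide, and all had peaks of every stage. Those of IQSEC1 were 1784, 843, 1802 and 1028 bp wide. BCAR1, BRF1 and CAMTA1 had 3 each.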

How the data were processed

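Bulk ATAC-seq libraries of 4 cultures were processed by the authors with cutadapt 4.4, Bowtie2 2.5.1 and SAMtools 1.15 on rheMac10, per the submitters' processing notes. For the peak caller, its threshold, pooling and any Tn5 offset, the sources used here give nothing. What the authors deposited is a table of merged regions with their width in bp and the names of the peaks in them. Another 8 columns carry no names and were not used, so read depth is not used here and no test over libraries was made.

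A region was called at a stage when it held at least 1 peak of it. The peak numbers of the sets have gaps (34.8% of E50 numbers are missing, 12.6% of E60, 16.4% of E80 and 26.5% of E85), and peaks of those numbers are not in the table. Starts were those of RefSeq's Mmul_10 annotation, 59043 for 21122 protein-coding and 8227 lncRNA genes, and coordinates are 1-based. For sequence, the start nearest the centre of a region of the gene's highest class was used, or the start with most transcripts where none was called, and 22 genes had no window. Members of a list were matched by symbol, and 18 synthetase symbols of newer style were not found and their older names were. The members, lists and motifs were chosen with earlier results of these data known, and some family lists include regulators and paralogs.

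Genes are named by rule. The rule takes the 10 widest members and the 5 others with most peaks, and the 5 genes with most members. It also takes the first 4 with and 2 without an all-stage promoter in each list, and the 10 with most other promoter regions. Any other gene was named after its values were seen. Some genes that the rule names are not reported here. In a check on simulated data, 484 of 484 region and start pairs around 300 simulated regions were recovered, and all planted copies of 17 motifs were found. Intervals are exact Clopper-Pearson at 95%. Python 3.11.15, NumPy 2.4.6, pandas 2.3.3, SciPy 1.17.1 and matplotlib 3.10.9 were used.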

Additional observations from a re-analysis of the deposited data

How the results depend on the processing

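With a window of 500 bp, 2000 bp, a start inside the region, or most of the region within the window, promoters were 48.9%, 53.0%, 46.7% and 48.4% of all-stage regions, and 41.8%, 43.7%, 40.4% and 41.6% of protein-coding genes had one. Protein-coding genes alone gave 48.6% of regions, and autosomes alone 44.1% of genes. The number of members stayed within 1.5 times 8597 in all of these. Astrocyte genes moved to 40.0%, below the background, with 500 bp, with a start inside and with most of the region within it. Without the E50 culture, 42.4% of regions called at the other 3 stages were promoters, 51.5% of genes had one, and upper-layer genes moved above the background at 75.0%. Potassium channels then moved to 35.9%, mesenchyme to 36.4% and intermediate progenitors to 22.2%. With all 4 stages and most of the region within the window, upper-layer genes fell to 12.5% and oligodendrocyte lineage genes to 11.1%. Leaving out E60, E80 or E85 changed none of the 3 leading values beyond its interval.

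Regions with no lifted peak were few: 314 members of median width 817 bp, 18.0% of their class and 1.29% of genes, with 6 of 37 lists above that share. There 30 lists stood at 0%, and the 16 of them that had been above the background were initiation factors, synthetases, chaperonin, complex I, RNA polymerase II, nucleoporins, replication, mitosis, histones, BAF, Polycomb, telencephalon, radial glia, outer radial glia, pan-neuronal and astrocytes. The share of CpG-rich promoters was higher at all 4 stages than at fewer by 15.5 percentage points, and by 9.76 about the region centre, 17.9 over every start and 24.9 with no lifted peak. The TAATTA difference turned to 0.54 in the longer window and 0.25 with no lifted peak, and the E2F difference to -0.08 there; the cause was not tested. Divergent pairs were in 11.6% of members with protein-coding genes alone and in 16.2% with starts within 1000 bp.

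No paired analysis was possible because the peak calls are per stage and not per library. Membership is limited by the smallest set, and depth was not used here.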
